A study of Sus scrofa with 4 samples.

Results

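Cell cycle transcripts are described here for the pig conceptus and the endometrium that surrounds it, on days 9 and 12 of pregnancy. A list of 38 genes was looked up by symbol among the 21280 genes of the deposited tables, and 31 were found. These 31 members comprise 3 genes of entry into S phase, 9 of S phase and 19 of G2 and mitosis. Of the 7 others, CCNE1, CDT1 and NUSAP1 have a row named only by its identifier, and no row was matched to MKI67, CCNA2, AURKA or RRM2.

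The material was single cells of whole embryos and of endometrium, dissociated with papain and dispase or with collagenases and dispase, and profiled with a droplet kit that tags the 3' end of each transcript. The 4 groups were the embryo on day 9 and on day 12 and the endometrium on those same days, each with 1 library. Breed, parity, treatment and the number of animals behind a library are not given in the sources used here. With 1 library per group no difference between days or tissues has a replicate check, and no test was run. Every interval below is a 95% interval for counting error alone. Those of levels and ratios take UMIs as independent, so they are too narrow where few cells hold most of the UMIs.

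A dividing cell copies its DNA in S phase and segregates it in mitosis, and each step has its own transcripts. E2F factors switch on the genes that load and fire replication origins, such as CDC6, the MCM helicase subunits and PCNA. A later wave before mitosis brings the B cyclins, the kinases PLK1 and AURKB, the spindle motors, and the ubiquitin ligase parts that end mitosis. Summed over cells, these transcripts follow both how many cells divide and how much RNA each dividing cell holds, and the values here cannot tell the 2 apart.

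After filtering, 6671 to 8962 cells per library remained, with medians of 11883.5 and 9297 UMIs (transcript molecules counted once) in the day 9 and day 12 embryo and 2639 and 2233 in the endometrium of those days. The day 9 embryo stands apart, since most of its deposited barcodes are no cells and its header names another Cell Ranger version. Between 196 and 270 cells of each library carry a barcode that is also a kept cell of another library. Leaving those cells out gave ratios inside the counting intervals of the summed ratios below. Clusters were named from marker genes, and each class name below means "like" that cell type. In the 9 classes with 50 cells or more on both days, 8 to 18 of 13 to 21 markers stood at a level of 5 or more (CPM, UMIs scaled to 1 total for all classes). The cell cycle genes were kept out of the clustering. Clusters holding 26.8% of the day 9 endometrium stayed unnamed, mainly cells with stromal markers.

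Levels are CPM of the summed UMIs of a class in a library. The members stood highest in the embryo (the plot of summed levels by class). The 19 G2 and M members summed to between 786 and 1611 CPM in the 4 embryonic classes. In the endometrium they spanned 10.6 CPM in day 12 B or plasma cells to 693 CPM in day 12 T or NK cells. No endometrial class reached the lowest embryonic one for that sum. For the 9 S phase members the tissues overlapped, because T or NK cells of day 12 held 972 CPM and the embryonic classes 376 to 957 CPM.

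**Figure D1:**
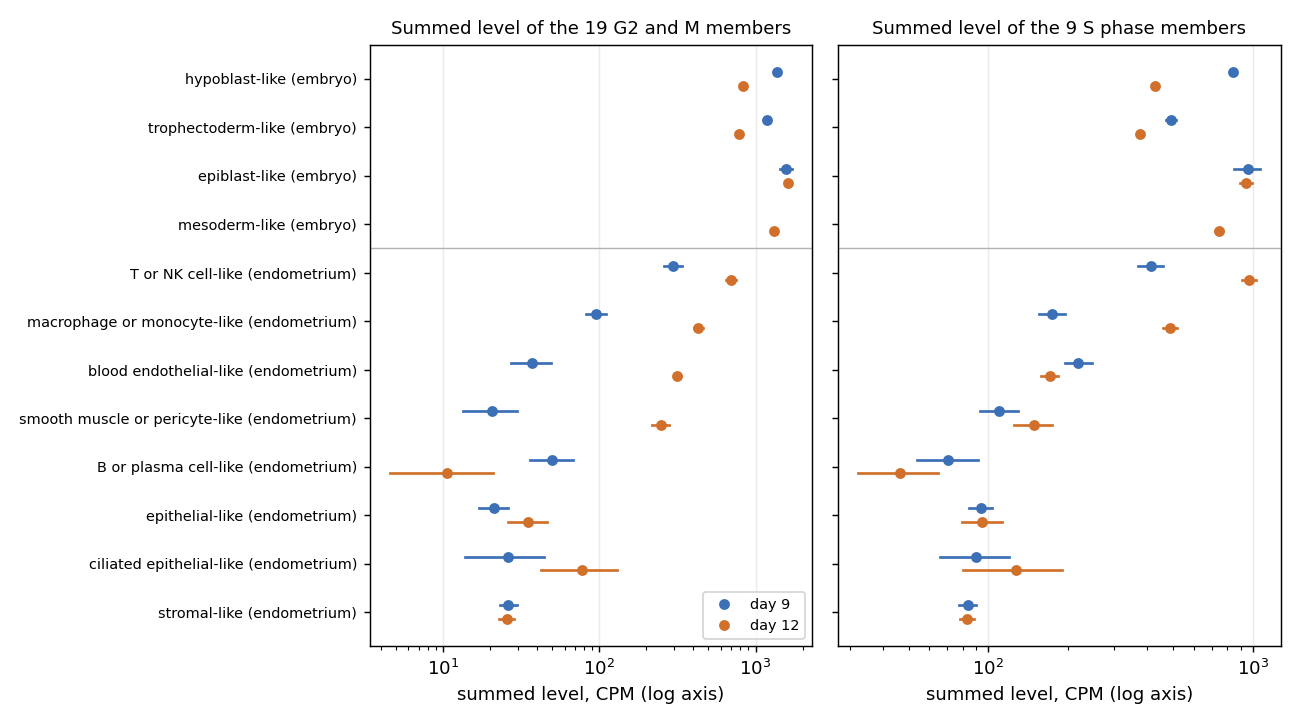
Summed level in CPM, on log axes, of the 19 G2 and M members (left) and the 9 S phase members (right) for each class, with day 9 in blue and day 12 in orange; bars are exact Poisson 95% intervals. Embryonic classes lie between 786 and 1611 CPM for G2 and M, and day 12 lies left of day 9 in hypoblast-like and trophectoderm-like cells but right of it in T or NK, macrophage, blood endothelial and smooth muscle or pericyte-like cells.

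Hypoblast-like cells form the layer that lines the yolk sac, and they were the largest class on day 9 with 5858 cells, against 2566 on day 12. Nearly the whole programme stood lower on day 12 there. Among the 31 members 22 were 1.5-fold or more lower, none was 1.5-fold or more higher, and 30 stood at 5 CPM or more on a day. Among all 8236 genes at that level 25% were lower and 19% higher by that size. The median log2 ratio of those 30 members was -0.75, against -0.16 for all genes. When levels were scaled to the median gene, the count of lower members was 15.

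Entry into S phase showed the largest difference in hypoblast-like cells. Its 3 members summed to 31.6 and 10.9 CPM on days 9 and 12, 2.90-fold lower (2.58 to 3.27). CDC6, which loads the replicative helicase onto origins, stood at 19.6 CPM and 5.00 CPM on the 2 days, 3.92-fold lower on day 12 (3.31 to 4.69). CCNE2, a cyclin that drives the G1 to S step, stood at 6.12 and 2.17 CPM. E2F1, the transcription factor upstream of both, stood at 5.79 and 3.69 CPM, a gap just under the 1.5-fold line on the log2(CPM + 1) scale used for the counts.

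The S phase members of hypoblast-like cells summed to 846 and 426 CPM on days 9 and 12, 1.98-fold lower (1.95 to 2.02). PCNA, the sliding clamp of DNA polymerase, stood at 282 and 125 CPM. The helicase subunits MCM2, MCM3, MCM4, MCM5 and MCM6 were 1.86-fold to 2.28-fold lower on day 12. Those 5 proteins act in 1 ring, and their transcripts lay within a narrow band of ratios. GINS2, a partner of that helicase, was 1.78-fold lower and RRM1, the large subunit of ribonucleotide reductase, 1.38-fold lower.

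The G2 and M members of hypoblast-like cells summed to 1368 CPM and 832 CPM, 1.64-fold lower on day 12 (1.62 to 1.67), or 17.5 and 9.39 UMIs per cell. The largest gaps were those of CENPF, a kinetochore protein of late G2 (60.1 and 22.2 CPM, 2.71-fold), PLK1, the kinase that starts mitosis (104 and 43.2 CPM, 2.41-fold), and CCNB1, the mitotic cyclin (146 and 68.6 CPM, 2.13-fold). TOP2A, the topoisomerase that untangles replicated chromosomes, stood at 105 and 67.5 CPM, 1.55-fold lower (1.48 to 1.63). At the other end KIF20A, a motor of late mitosis, stood at 21.2 and 20.9 CPM, with a ratio of 0.986 (0.896 to 1.08). CENPE (39.5 and 34.7 CPM), CDC20 (167 and 139 CPM), KIF11, BUB1 and CDK1 also lay under the 1.5-fold line. Thus 13 of 19 G2 and M members, 7 of 9 S phase members and 2 of 3 entry members were lower by that size.

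The difference was present in every hypoblast-like cluster. The 6 clusters of day 9 summed to 1268 to 1398 CPM for G2 and M, and the 4 of day 12 to 779 to 969 CPM, with no overlap. Beside this, genes induced by tissue dissociation summed to 1514 and 3498 CPM on days 9 and 12 in these cells, and the median mitochondrial share was 3.47% and 3.39%. In the day 9 embryo, barcodes of 100 UMIs or more but under 500, below the level of cells, held the G2 and M members at 1200 CPM. The parts of dissociation and of these barcodes in the result were not tested.

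Trophectoderm-like cells, the outer layer that will form the placenta, numbered 654 on day 9 and 3251 on day 12. Their G2 and M members summed to 1180 CPM (8.02 UMIs per cell) on day 9 and 786 CPM (6.85 UMIs per cell) on day 12, a ratio of 0.666 (0.646 to 0.686), and the S phase members to 492 and 376 CPM, 1.31-fold lower (1.25 to 1.37). Behind those sums the members split. Of the 28 at 5 CPM or more, 11 were 1.5-fold or more lower and 4 higher, where 20.7% of all 7775 genes were lower and 40.9% higher. With levels scaled to the median gene the counts were 5 lower and 5 higher. The median log2 ratio was -0.31 for members and 0.31 for all genes.

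Among the members lower on day 12 in trophectoderm-like cells was HMMR, a spindle-assembly protein, at 77.4 and 28.2 CPM (2.74-fold, 2.41 to 3.11). AURKB, the kinase of the chromosomal passenger complex, stood at 33.1 and 13.3 CPM (2.48-fold). PLK1 stood at 85.1 and 38.3 CPM and CENPF at 54.5 and 27.9 CPM. BIRC5 (246 and 140 CPM), UBE2C (245 and 150 CPM) and CDC20 (126 and 79.5 CPM), which act in the passenger complex and in the destruction of mitotic proteins, were 1.59-fold to 1.76-fold lower. CCNB1 and CCNB2 were 1.52-fold and 1.60-fold lower.

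Higher on day 12 in the same cells were TOP2A at 26.3 and 44.4 CPM (1.69-fold, 1.39 to 2.06), KIF23, a motor of the cleavage furrow, at 22.1 and 45.7 CPM (2.07-fold, 1.69 to 2.57), and the spindle checkpoint kinases BUB1 (8.33 and 13.5 CPM) and BUB1B (6.53 and 14.4 CPM, 2.21-fold, 1.52 to 3.34). In hypoblast-like cells all 4 of these genes were lower on day 12, by 1.35-fold to 1.77-fold. S phase members were also uneven, since GINS2 (86.7 and 38.2 CPM, 2.27-fold lower) and PCNA (160 and 97.6 CPM) were lower while MCM2 (31.1 and 37.6 CPM) and MCM6 (39.8 and 51.7 CPM) were not.

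Other measures of these cells and of their libraries are given beside this split. Barcodes of 100 UMIs or more but under 500 in the day 9 embryo, 37471 of them and below the level of cells, held the G2 and M members at 1200.2 CPM, 88.2% of the level in the cells of that library. For the 4 members higher on day 12 in trophectoderm-like cells, that percentage was 40.7% (TOP2A) to 61.6% (BUB1). For the 9 G2 and M members lower there it was 56.9% (CENPF) to 167% (AURKB), with a median of 98.1%. The 6 others spanned both, from 43.3% (KIF11) to 100.4% (CDK1), with a median of 70.5%. The split and this percentage both draw on levels of the day 9 embryo library, so they are not independent measures. Of the cells of that library, whose level is the base of the percentage, 83.7% were hypoblast-like. Day 9 trophectoderm-like cells also had a lower depth (median 5700 against 8215 UMIs), a lower median mitochondrial share (0.548% against 3.63%) and a lower level of dissociation genes (264 against 3117 CPM) than those of day 12. Depth, mitochondrial share and dissociation level were taken per class, and how they bear on single members was not examined. The part of these differences and of the low-UMI barcodes in the split was not tested.

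**Figure D2:**
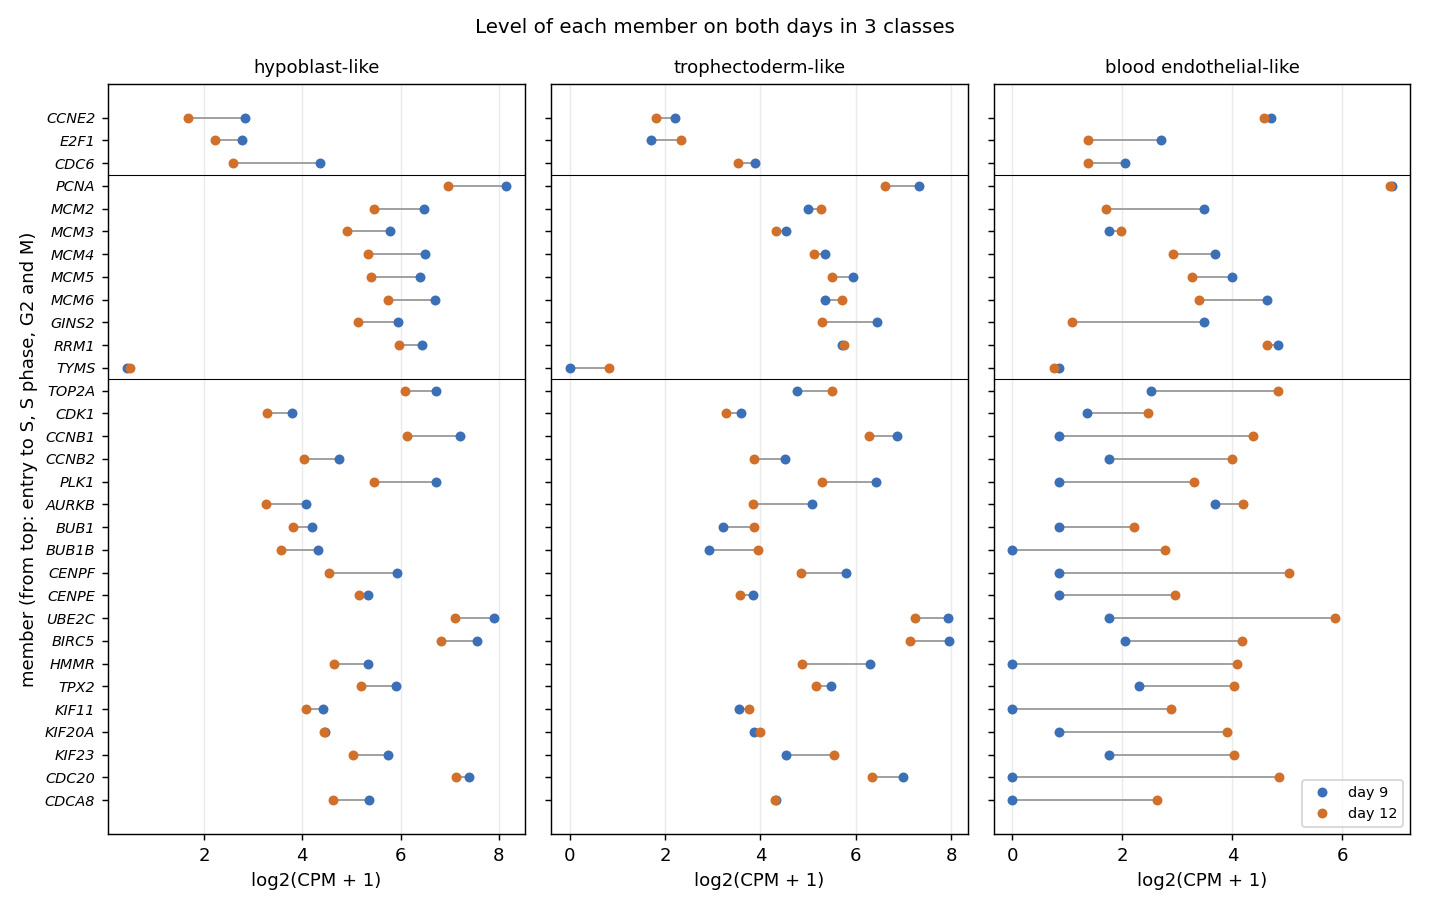
Level of each member as log2(CPM + 1) on day 9 (blue) and day 12 (orange) in hypoblast-like, trophectoderm-like and blood endothelial-like cells, with lines joining the 2 days and members in order of entry to S, S phase, then G2 and M. In hypoblast-like cells nearly all orange points lie left of blue; in trophectoderm-like cells TOP2A, KIF23, BUB1 and BUB1B go the other way; in blood endothelial-like cells the G2 and M members lie to the right on day 12 and most S phase members to the left.

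Epiblast-like cells, from which the fetus itself arises, held the members at high levels on both days, although day 9 gave only 21 cells. Their G2 and M members summed to 1569 CPM (1435 to 1713) on day 9 and 1611 CPM (1549.7 to 1673) on day 12. TOP2A stood at 191 and 190.4 CPM on days 9 and 12, and CCNB1 at 197 and 201 CPM. The intervals of the sums overlap, and 21 cells are under the 50 needed for a comparison of days here. The summed level of the 10 epiblast markers was lower in the day 12 class (734 CPM) than in the rest of its library (881 CPM), although 8 of the 10 were each above the rest. On day 12, 13 of the 19 G2 and M members stood higher in the epiblast-like class than in every other class and library with 50 cells. Mesoderm-like cells, found on day 12 alone with 216 cells, held 1309 CPM of G2 and M and 746 CPM of S phase members. Both day 12 classes lay above the 832 and 786 CPM of day 12 hypoblast-like and trophectoderm-like cells, with intervals that do not overlap.

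In the endometrium the G2 and M sum was 2.34-fold to 12.1-fold higher on day 12 in 4 classes. T or NK cells, the lymphocytes of the uterine lining, numbered 517 on day 9 and 650 on day 12. Their G2 and M members summed to 296 and 693 CPM, 2.34-fold higher on day 12 (2.02 to 2.73), and the S phase members to 412 and 972 CPM, 2.36-fold higher (2.08 to 2.68). Of the 31 members, 27 were 1.5-fold or more higher and none was lower by that size, and TYMS alone stood under 5 CPM on both days. Of all 9440 genes in that class 15.5% were higher and 23.4% lower.

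Entry into S phase differed more than either sum in T or NK cells, at 10.2 and 67.7 CPM (8 and 69 UMIs, 6.63-fold, 3.18 to 16.0). E2F1 was listed with 0 UMIs on day 9 and 18 on day 12, at least 4.61-fold higher when the 0 is read as 3 counts in the class. MCM2 had 1 UMI on day 9 and 51 on day 12, a ratio of 39.2 with an interval from 6.72 to 1578. TOP2A stood at 35.7 and 104 CPM, PCNA at 264 and 568 CPM and UBE2C at 54.9 and 149 CPM. AURKB (23.0 and 24.5 CPM), CENPF (39.6 and 52.9 CPM) and KIF23 (10.2 and 15.7 CPM) lay under the 1.5-fold line on the log2(CPM + 1) scale. Median depth was 1207 and 1238 UMIs. With the 5% of cells of this class with the highest depth left out on each day, the ratio was 3.83 for G2 and M and 3.62 for S phase.

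Macrophages or monocytes, 630 and 612 cells, also held more of the members on day 12. The G2 and M members summed to 95.9 and 431 CPM on days 9 and 12, 4.49-fold higher (3.82 to 5.32), and the S phase members to 175 and 489 CPM, 2.79-fold higher (2.46 to 3.18). Of the 31 members 26 were higher by 1.5-fold or more, none was lower, and 4 stood under 5 CPM on both days. Of all 9469 genes 14.4% were higher and 21.1% lower. UBE2C, which marks mitotic cyclins for destruction, had 20 UMIs on day 9 and 178 on day 12 (7.45-fold, 4.68 to 12.5). TOP2A stood at 9.42 and 58.0 CPM (6.15-fold, 3.69 to 10.9) and PCNA at 98.1 and 277 CPM. PLK1 was the exception among measured members, at 5.54 and 8.81 CPM with an interval for the ratio from 0.703 to 3.83.

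Blood endothelial cells, which line the uterine vessels, numbered 176 on day 9 and 820 on day 12, or 2.20% and 9.15% of cells. Here the 2 arms of the programme parted. The G2 and M members summed to 37.0 CPM on day 9 (47 UMIs) and 315 CPM on day 12 (1394 UMIs), 8.53-fold higher (6.38 to 11.7). The S phase members summed to 219 CPM and 171 CPM, a ratio of 0.778 (0.677 to 0.896). With the 5% of cells of this class with the highest depth left out on each day, that ratio was 0.886, with an interval that holds 1. The ratio of the G2 and M sum to the S phase sum was 0.168 on day 9 and 1.85 on day 12.

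In blood endothelial cells 26 of the 31 members stood at 5 CPM or more on a day. Of these, 16 were 1.5-fold or more higher and 6 lower. All of the higher ones belong to G2 and M, where 16 of the 17 at 5 CPM or more passed that line. CDK1 and BUB1 lay under that level on both days, and AURKB (11.8 and 17.2 CPM) was the member that did not reach the fold. The 16 stood under 5 CPM on day 9 and met the minimum through day 12 alone, so the minimum itself favours such a share. With no minimum level, 18 of the 19 were 1.5-fold or more higher, some on few UMIs. Of all 9827 genes 10.5% were higher and 19.1% lower. CENPF had 1 UMI on day 9 and 140 on day 12 (0.787 and 31.7 CPM), and CCNB1 1 and 87 (0.787 and 19.7 CPM, a ratio of 25.0 from 4.37 to 999). UBE2C stood at 2.36 and 57.7 CPM (24.4-fold, 8.27 to 119), and TOP2A at 4.72 and 27.4 CPM (5.80-fold, 2.59 to 16.1). CDC20, the activator of the ligase that ends mitosis, had 0 and 123 UMIs, at least 11.8-fold higher. HMMR had 0 and 71 UMIs, at least 6.80-fold higher. The 176 cells of the class on day 9 set 1 side of each of these ratios.

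Of the S phase members, 5 were 1.5-fold or more lower on day 12 in blood endothelial cells. These were MCM2 (10.2 and 2.26 CPM), MCM4 (11.8 and 6.56 CPM), MCM5 (14.9 and 8.59 CPM), MCM6 (23.6 and 9.50 CPM) and GINS2 (10.2 and 1.13 CPM), all parts of the helicase at the replication fork. Their counts were low, with 13 to 30 UMIs each on day 9, and the interval of the ratio holds 1 for MCM4 and MCM5. PCNA (118 and 115 CPM) and RRM1 (27.5 and 23.7 CPM), which made up most of the S phase sum, differed little. Median depth was 5983.5 UMIs on day 9 and 3083 on day 12, and dissociation genes summed to 13272 and 12594 CPM.

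Smooth muscle or pericyte cells, which wrap vessels and form the muscle of the wall, numbered 584 and 394. Their G2 and M members summed to 20.5 CPM on day 9 (27 UMIs) and 248 CPM on day 12 (250 UMIs), 12.1-fold higher (8.11 to 18.7), and the S phase members to 110 and 149 CPM (1.35-fold, 1.07 to 1.71). Of the 17 members at 5 CPM or more 12 were higher and none was lower, with 14 of the 31 under that level. Among the 19 G2 and M members 11 of the 12 at 5 CPM or more were higher by 1.5-fold or more and 7 stood under that level on both days. Those 11 stood under 5 CPM on day 9 and met the minimum through day 12 alone, so the minimum itself favours that share. With no minimum level 17 of the 19 were higher by that size, some on few UMIs. Of all 10198 genes 17% were higher and 17.9% lower. UBE2C had 0 UMIs on day 9 and 47 on day 12, at least 20.5-fold higher, and TOP2A 0 and 32, at least 13.9-fold higher. PLK1 had 6 and 5 UMIs. With the 5% of cells of this class with the highest depth left out on each day, the G2 and M ratio was 6.63. The S phase ratio was then 1.25, with an interval that holds 1. On day 12, 8 of the 394 cells held 216 of the 250 UMIs and 1 cell held 79. The other cells stood at 34.7 CPM, against 20.5 CPM on day 9.

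Stromal-like cells, the largest endometrial class with 3096 and 5615 cells, held few transcripts of either phase on both days. The G2 and M members summed to 26.2 and 25.6 CPM, a ratio of 0.979 (0.828 to 1.16), and the S phase members to 83.6 and 83.4 CPM, a ratio of 0.997 (0.909 to 1.09). On both days 26 of the 31 members lay under 5 CPM, and 1 of the others was 1.5-fold or more higher while none was lower, where 14% of all genes were higher and 17.8% lower. That 1 was CCNE2, at 4.92 and 10.4 CPM (2.12-fold, 1.51 to 3.03). Leaving out the 5% of stromal-like cells with the most UMIs gave a G2 and M ratio of 1.22.

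Epithelial-like cells, of the lumen and glands, were low as well. The G2 and M members summed to 21.2 CPM (88 UMIs) and 35.2 CPM (50 UMIs), 1.66-fold higher on day 12 (1.15 to 2.38), and the S phase members to 93.7 and 95.1 CPM. The G2 and M ratio was 1.48 (0.961 to 2.28) without the cells of shared barcodes. It was 1.27 (0.815 to 1.94) without the 5% of epithelial-like cells of highest depth on each day, and both intervals hold 1. On day 12, 1 cell held 7 of the 50 UMIs, with macrophage markers at 7030.2 CPM against 420.0 CPM in the other cells. Of the 31 members 23 lay under 5 CPM on both days. By size, 3 of the other 8 were higher and 2 lower by 1.5-fold or more. Among all genes at that level 18.6% were higher and 28.6% lower. Among those higher or lower members, CDC20 (4 and 9 UMIs) and RRM1 (36.1 and 19.7 CPM, lower) had intervals that leave out 1. So did PCNA (31.6 and 46.5 CPM, ratio 1.47, 1.08 to 1.99), under the 1.5-fold line, and UBE2C (4 and 7 UMIs), under 5 CPM. In B or plasma cells, 77 and 65 cells, the G2 and M members had 41 UMIs on day 9 and 8 on day 12, 4.73-fold lower in CPM (2.19 to 11.7). There 24 of the 31 members lay under 5 CPM. Of the other 7, 5 were lower and none higher, where 35.3% of all genes at that level were lower and 16.9% higher. On day 9, 3 cells of that class held 32 of the 41 UMIs. The other cells of day 9 stood at 11.4 CPM, against 10.6 CPM in the class on day 12. Those 3 cells held the B or plasma cell markers at 47134 CPM, against 178849 CPM in the others.

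**Figure D3:**
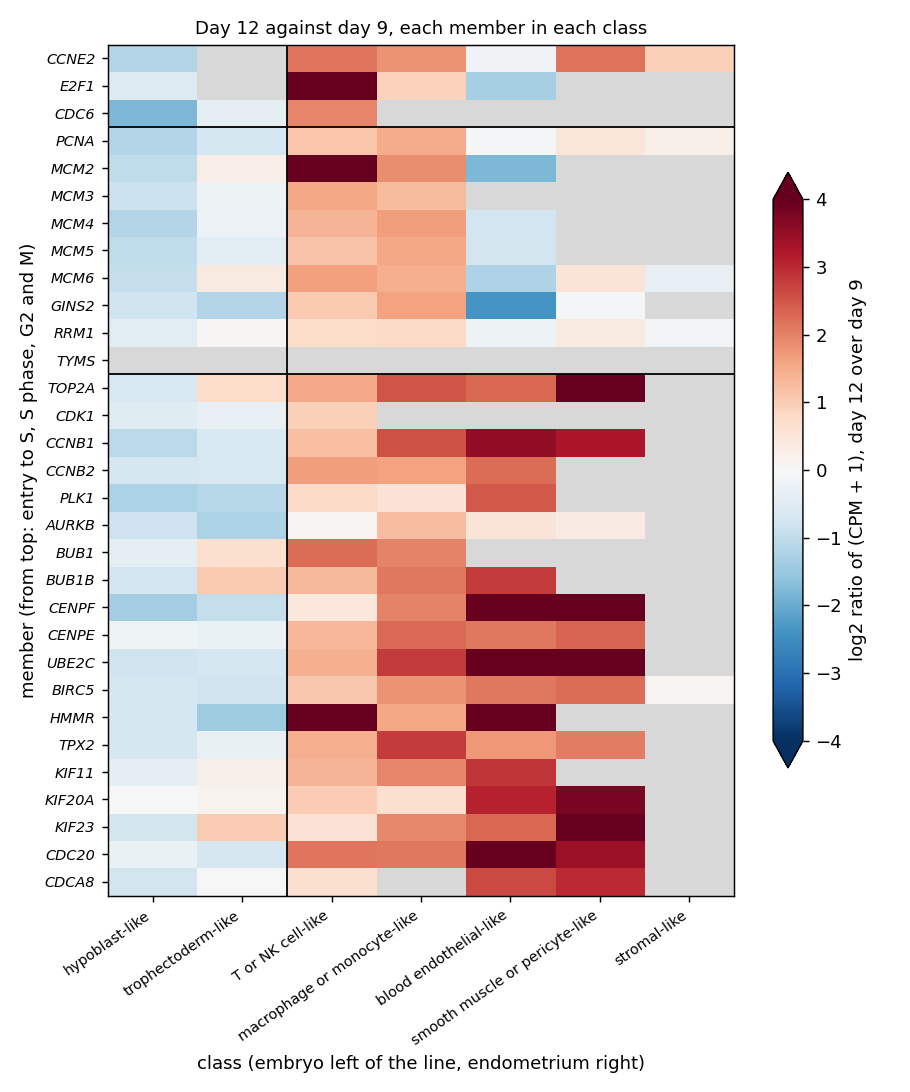
Log2 ratio of (CPM + 1), day 12 over day 9, of each member (rows, by phase) in 7 classes (columns); red is higher and blue lower on day 12, the scale is capped at 4 in either direction, and grey marks members under 5 CPM on both days. The 2 embryonic columns are mostly blue, T or NK and macrophage columns are red in all phases, and the blood endothelial column is red for G2 and M and blue for most S phase members.

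How the transcripts were spread over cells differed between the tissues. Cells with 5 or more UMIs of the G2 and M members, a threshold chosen after the values were seen, numbered 40 of 820 in day 12 blood endothelium, 4.88% (3.51 to 6.58). Those 40 cells held 87.7% of the UMIs of these members in the class, and each carried a median of 10.5 different members. On day 9 the number was 1 of 176, 0.568% (0.0144 to 3.12), at a higher median depth. In macrophages the numbers were 7 of 630 on day 9 (1.11%, 0.448 to 2.28) and 47 of 612 on day 12 (7.68%, 5.70 to 10.1). In T or NK cells they were 15 of 517 (2.90%, 1.63 to 4.74) and 42 of 650 (6.46%, 4.70 to 8.63), whose intervals meet. Smooth muscle or pericyte cells had 0 of 584, whose upper bound is 0.630%, and 8 of 394 (2.03%, 0.881 to 3.96). No stromal-like cell of 5615 on day 12 reached the threshold, against 3 of 3096 on day 9. In day 12 blood endothelium 13 cells just under it had 3 or 4 UMIs, and 9 of the 40 had 5 or 6.

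The remaining blood endothelial cells held G2 and M members at 32.5 and 43.5 CPM on days 9 and 12, while the remaining T or NK cells held them at 42.8 and 108 CPM, a gap about as wide in ratio as that of the whole class. The 40 endothelial cells held the endothelial markers at 5664 CPM, against 6842 CPM in the other cells of the class, and the macrophage and T or NK markers at 158 and 150 CPM, against 220 and 296 CPM. Their median depth was 8992.5 UMIs, against 2914 in the others, and their S phase members stood at 470 CPM against 135 CPM. The 47 macrophages held their own markers at 14358 CPM against 19505 CPM. The 8 smooth muscle or pericyte cells held T or NK markers at 1057 CPM against 511 CPM, and their own at 10309 CPM against 13911 CPM. The doublet caller marked no cell in either endometrial library, and the part of doublets was not tested.

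**Figure D4:**
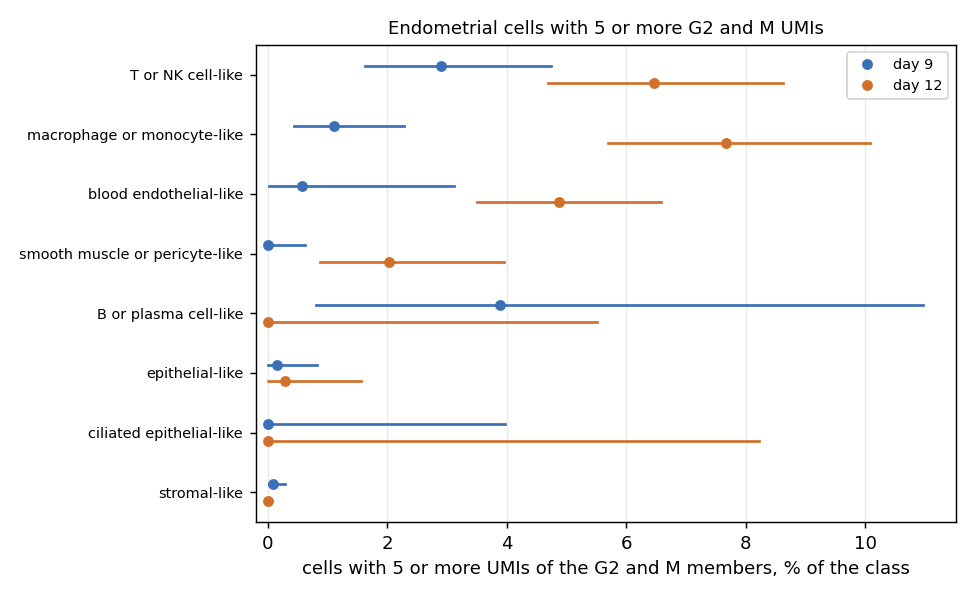
Percent of cells of each endometrial class with 5 or more UMIs of the G2 and M members, day 9 in blue and day 12 in orange, with exact binomial 95% intervals. Day 12 lies at 7.68% in macrophages, 6.46% in T or NK cells and 4.88% in blood endothelium, to the right of day 9 in each, and stromal-like cells lie near 0 on both days.

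To compare cells at 1 depth, each was thinned to 1000 UMIs. TOP2A was then found in 9.56% of hypoblast-like cells on day 9 (8.82 to 10.3) and 5.69% on day 12 (4.83 to 6.66), before thinning in 55.7% and 38.0%. In trophectoderm-like cells the shares were 3.82% and 3.57%. They were 0.774% and 3.85% in T or NK cells, 0.635% and 3.43% in macrophages, and 1.14% and 2.07% in blood endothelium, whose intervals overlap. Ciliated epithelial cells, which do not divide and serve as a background, had none in 91 cells on day 9 and in 43 on day 12, with upper bounds of 3.97% and 8.22%. That background is too small to set against the lower endometrial shares. Its median depth was 5021 and 3354 UMIs. On day 12 the ciliated class held the G2 and M members at 77.4 CPM (14 UMIs), above the 25.6 CPM of stromal-like and 35.2 CPM of epithelial-like cells. A UMI of any of these members was in 4.65% of its cells after thinning (0.568 to 15.8) and in 25.6% before, against 12.6% and 16.5% of T or NK cells, 11.4% and 22.2% of macrophages and 8.54% and 20.2% of blood endothelial cells.

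Cells with TOP2A were also examined for other G2 and M transcripts, which a cell in that stage makes at the same time. In day 12 T or NK cells with TOP2A, 88.0% also had another of the 18 remaining G2 and M members at 1000 UMIs, against 9.12% of cells without it. The figures were 85.7% and 8.29% in macrophages, and 76.5% and 6.60% in blood endothelium. In day 12 stromal-like cells they were 12.5% (1 of 8 cells, 0.316 to 52.7) and 2.60%. In the embryo the contrast was small, at 72.3% (68.4 to 76.0) and 67.8% (66.5 to 69.0) in day 9 hypoblast-like cells and 61.6% and 46.5% on day 12. Before thinning, it took 26.7% of day 9 hypoblast-like cells to reach 50% of their G2 and M UMIs, against 1.22% in day 12 blood endothelium. Those 2 shares are not at equal depth, since the medians were 12542.5 and 3083 UMIs. The low-UMI barcodes of the day 9 embryo held these members at nearly the level of cells, as given above, and the part of free RNA in the embryonic shares was not tested.

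**Figure D5:**
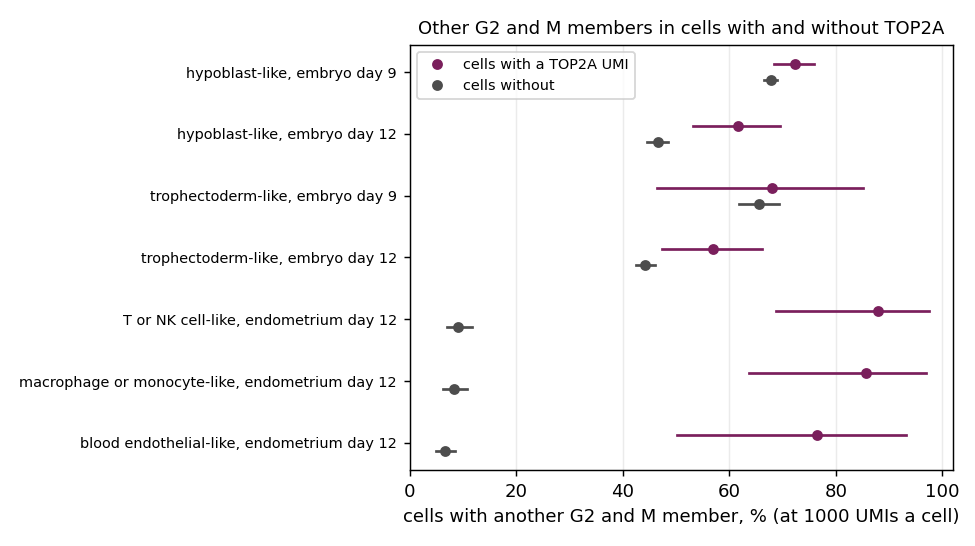
Percent of cells, each thinned to 1000 UMIs, with a UMI of a G2 and M member other than TOP2A, among cells with TOP2A (purple) and without it (grey), with exact binomial 95% intervals. The 2 shares lie far apart in day 12 T or NK cells (88.0% and 9.12%), macrophages and blood endothelium, and close together in day 9 hypoblast-like cells (72.3% and 67.8%).

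Over the 21 combinations of class and library with 50 cells or more, the members most like TOP2A in the order of their levels were BUB1 (Spearman's rho 0.92), BUB1B (0.91) and CENPF (0.91). The least like were CCNE2 (0.35) and TYMS (0.41). These are descriptions over 4 libraries, and points of a library share its depth and free RNA. CCNE2, E2F1 and PCNA had their highest level outside the embryo, in day 12 T or NK cells, at 37.3, 17.6 and 568 CPM. TYMS, the thymidylate synthase of S phase, was nearly unseen, with at most 1.41 CPM in any class of 50 cells and 0.348 CPM in day 9 hypoblast-like cells, where the other S phase members were abundant.

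The genes read from rows that carry an identifier alone are given apart. NUSAP1, a spindle protein, stood at 8.65 and 66.9 CPM in blood endothelium (7.74-fold higher, 4.26 to 15.7) and at 76.0 and 62.6 CPM in hypoblast-like cells. CDT1, the partner of CDC6 in origin licensing, stood at 77.6 and 35.4 CPM in hypoblast-like cells (2.19-fold lower) and at 7.87 and 3.17 CPM in blood endothelium. CCNE1, the other E cyclin, stood at 20.6 and 8.73 CPM in hypoblast-like cells (2.36-fold lower).

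Of 117 other cell cycle genes, hypoblast-like cells had 56 lower and 4 higher by 1.5-fold or more on day 12, including 22 lower of 38 replication genes and 20 lower of 38 mitosis genes. In those cells 97 of the 117 stood at 5 CPM or more. Trophectoderm-like cells had 24 lower and 23 higher with 93 at that level, macrophages 4 and 58 with 91, T or NK cells 6 and 47 with 97, and blood endothelium 16 and 21 with 79. The shares of all genes given above for each class apply here too, and the 16 lower in blood endothelium are near its 19.1%. In blood endothelium 15 of 38 mitosis genes were higher (25 at 5 CPM or more), while of 38 replication genes 8 were lower and 3 higher (26 at that level), beside the members' own 16 higher of G2 and M and 5 lower of S phase. CDKN1A, which blocks cyclin-dependent kinases, stood at 2.61 and 34.7 CPM in hypoblast-like cells (13.3-fold higher on day 12, 11.4 to 15.6) and at 0.450 and 41.5 CPM in trophectoderm-like cells (2 and 1176 UMIs). WEE1, a kinase that holds CDK1 inactive, stood at 14.5 and 55.7 CPM and at 2.70 and 49.6 CPM in those classes.

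Other genes singled out by size were CCND2 (38.6 and 9.73 CPM) and PKMYT1, which also holds CDK1 inactive (24.8 and 8.18 CPM), lower on day 12 in hypoblast-like cells. CCND1, a cyclin of G1, stood at 1.35 and 58.0 CPM and TFDP2, an E2F partner, at 2.70 and 42.9 CPM in trophectoderm-like cells. In stromal-like cells ORC6 (10.6 and 30.4 CPM), ORC4 (43.8 and 84.6 CPM) and the kinase inhibitor CDKN2C (34.0 and 66.1 CPM) were higher and LIG1 (35.7 and 19.2 CPM) lower. In macrophages UHRF1 (2.77 and 25.0 CPM), GINS1 (6.65 and 40.3 CPM), RACGAP1 (6.65 and 32.9 CPM) and NDC80 (4.43 and 22.7 CPM) were higher. The dissociation genes given above for the embryo, which were higher on day 12 in both embryonic classes, differed in the same direction as CDKN1A there, and their part was not tested.

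On the Sscrofa11.1 assembly, RefSeq places TOP2A on chromosome 12 at 22001300 to 22028452 and CDC6 on the same chromosome at 22101281 to 22118441. CCNB1 lies on chromosome 16 at 47338239 to 47348385, CENPF on chromosome 9 at 128948386 to 129012241, PLK1 on chromosome 3 at 22537814 to 22550901, and PCNA on chromosome 17 at 14137746 to 14142584. These spans cover whole genes, matched by symbol.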

How the data were processed

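Single-cell 3' libraries of 4 samples were used, 1 per group. The deposited matrices hold UMI counts for each gene in each barcode. Per the submitters' processing notes the tool was Cell Ranger 6.1.2 and the genome Sscrofa11.1, while 1 matrix, the day 9 embryo, has Cell Ranger 4 per the file headers. That matrix is unfiltered, so its cells were taken above a UMI total of 0.1 times the 99th percentile among the 3000 largest barcodes. In all libraries a cell had at least 1000 UMIs and 500 genes, with no more than 20% of UMIs from mitochondria. Doublets were sought with Scrublet in scanpy 1.11.5 and removed: 1, 93, 0 and 0 cells, under 0.5% in 3 libraries, so the caller did not work there. Each library was clustered without the cell cycle genes (2000 variable genes, 30 components, 15 neighbours, Leiden resolution 0.6), and clusters were named from markers. Naming took 3 markers at 0.5 times or more of the level in their top cluster.

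Counts were summed per class and library, and scaled to CPM. Days were compared in classes of 50 cells or more on both days. Ratios of counts have exact binomial intervals, levels exact Poisson intervals. A gene counts as higher or lower at 1.5-fold on the log2(CPM + 1) scale, among genes at 5 CPM or more on a day. A gene under that level on 1 day enters only through the other day, which favours a call. A 0 was read as 3 counts of the class. No test was run. The ratio step and the thinning were tested on simulated data. Scaling, cell filters, clustering, doublets and shared barcodes were varied.

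All 31 members are named. Other cell cycle genes are named in the largest 2 classes of each tissue, up to 4 by size of the day difference at 20 CPM or more. The members and lists were chosen with earlier results of these data known.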

Additional observations from a re-analysis of the deposited data

Results flagged for a closer look

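The day difference of the summed G2 and M members differed between classes. The ratio of day 12 to day 9 was 0.608 in hypoblast-like and 0.666 in trophectoderm-like cells of the embryo. In the endometrium it was 8.53 in blood endothelial-like, 12.1 in smooth muscle or pericyte-like, 4.49 in macrophage or monocyte-like, 2.34 in T or NK cell-like and 1.66 in epithelial-like cells, 0.979 in stromal-like cells and 0.211 in B or plasma cell-like cells. The last ratio rests on 41 UMIs on day 9, of which 3 cells held 32, and 8 UMIs on day 12. With 1 library per group the difference between classes and tissues was not tested.

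Barcodes of 100 UMIs or more but under 500 in the day 9 embryo, which enter no comparison, held the G2 and M members at 1200.2 CPM and the S phase members at 633 CPM. These are 88.2% and 77.0% of the levels in the cells of that library.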

How the results depend on the processing

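No paired analysis was possible because each group has 1 library. Of 298 recomputed values, 272 stayed within the counting interval of the main value, the spread of members or 1.5 times a count. Some of these could not move. Keeping doublets changed no endometrial value, as none was called there, and the day 9 embryo threshold touches the embryo alone. The limits are also wide. They count 15 lower members against 22 in hypoblast-like cells as staying, and a trophectoderm-like median log2 ratio of -0.026 against -0.313. No summed ratio whose interval left out 1 changed direction. The stromal-like ratios (0.979 and 0.997) and the epithelial-like S phase ratio (1.01), whose intervals hold 1, lay on either side of 1 across settings. Scaling to the median gene gave G2 and M ratios of 0.680 (hypoblast-like) and 0.812 (trophectoderm-like), S phase ratios of 0.563 and 0.934, and 5 lower members in trophectoderm-like cells. Calling day 9 embryo cells at 1000 UMIs gave a trophectoderm-like S phase ratio of 0.674. Cells of 2000 UMIs or more gave 20 higher members in smooth muscle or pericyte-like cells and an S phase ratio of 1.83 in T or NK cell-like cells. Among alternatives chosen after seeing the data, leaving out 1 of the 4 day 12 trophectoderm-like clusters gave ratios of 0.699 and 0.803. The 5% of cells with the most UMIs were also left out of each class in each library. That gave G2 and M ratios of 0.632 (trophectoderm-like), 1.22 (stromal-like), 6.63 (smooth muscle or pericyte-like) and 3.83 (T or NK cell-like), and 3.62 for S phase in the last. The cause was not tested. Thinned to 2000 UMIs, or not thinned, TOP2A was in 17.5% and 55.7% of day 9 and 11.1% and 38.0% of day 12 hypoblast-like cells. For T or NK cell-like cells it was in 11.9% and 2.71% on day 9 and 27.6% and 7.38% on day 12. Day 12 macrophages gave 5.82% and 8.01%, and day 12 blood endothelium 4.76% unthinned. Depth sets such shares, and few T or NK cell-like cells reach 2000 UMIs. The library, animal and day cannot be told apart, and low endometrial counts (27 to 47 UMIs for G2 and M on day 9 in vessel classes) limit single genes.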
